A study of Mus musculus with 20 samples.

Results

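T cell lymphomas lacking the transcription factor inhibitors *Id2* and *Id3* were compared with CD4SP thymocytes, the thymocytes that have kept CD4 and lost CD8, by RNA sequencing. The comparison covers the 14472 of 39179 genes in the deposited table whose larger group mean, lymphoma or control, was at least 10 normalized counts. It rests on 11 of the 20 samples of the series. The 6 lymphoma samples carry the genotype label Id2_Id3_dKO and came, per the study's text, from aged mice with floxed alleles of both genes and a Cre driven by the IL7R, CD4 or distal Lck promoter. Which Cre each lymphoma carried is not given in the sources used here. Per the labels, 4 lymphomas were taken from lymph node, 1 from spleen and 1 from thymus, with 4 sorted as CD3+TCRb+CD4+ cells and 2 as CD3+TCRb+CD8+ cells. The 5 control samples were thymic CD4+TCRb+CD8- cells that the labels call wild type, while the study's figure legends give young *Id3*+/- mice or littermate controls as their source, and all samples have the C57BL/6 background. Genotype, age, tissue, sort and transformation therefore differ together between the groups and cannot be told apart. Means of Y-linked genes, given below, differ between the groups as well.

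E proteins (*Tcf3*, *Tcf12* and *Tcf4*, which encode E2A, HEB and E2-2) are helix-loop-helix transcription factors that bind short DNA elements called E-boxes, with the core CANNTG. Id proteins pair with them and keep them off DNA. In the thymus, signals from the T cell receptor (TCR) induce *Id3* during positive selection. *Id2* is induced later, by a separate pathway that the study leaves unidentified. The E and Id balance sets thymocyte maturation, innate-like T cell development and quiescence. Loss of Id proteins in T cells is known to favor innate-like populations and T cell lymphoma.

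The deposited table holds 1 value per group, the authors' mean of DESeq-normalized counts, beside the authors' own fold changes and p-values, which were not used here. From the means alone no spread between libraries, standard error or p-value could be computed for any gene below. A lymphoma mean can come from all 6 tumors or from 1 tumor alone, and the sequencing depth of each library is unknown. Differences are given as log2 ratios of lymphoma over control after 1 normalized count was added to both means, which understates the difference for genes with low means. "Higher" and "lower" below describe these means, and a gene was counted when it was at least 2-fold apart. Of the 14472 genes, 2708 (18.7%) were at least 2-fold higher in the lymphomas and 2308 (15.9%) were at least 2-fold lower, with a median log2 ratio over all of them of 0.06. The counts for each gene list below are to be read against these shares, and a list near them does not stand apart from all genes. Lists and members were chosen with earlier results of these data known. Their counts and medians therefore describe the lists and are no independent support. At 16-fold, 371 genes were still counted as higher and 238 as lower. The means summed to 13456863 normalized counts in control cells and 15497262 in the lymphomas, and scaling both to the same sum would shift every log2 ratio by -0.20 and turn the split into 2249 higher and 2854 lower.

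Genes with low means took up a large part of the counted genes. Both means were at least 10 in 12092 genes, of which 1724 (14.3%) were higher and 1269 (10.5%) lower. Among the other 2380 genes, 1137 were included through the lymphoma mean alone and 1243 through the control mean alone. Just inside the limit of 10 were Gm2694 (10.003 in control cells), Plekhb1 (10.004) and Syce1 (10.006), and just outside it were Rps15a-ps4 (9.998 in control cells), Nrk (9.994) and Avpr1b (9.991 in the lymphomas). Of the genes whose larger mean was at least 1000, 550 of 3913 were higher and 380 lower. By class, 2333 of 12490 protein-coding genes were higher and 1693 lower, and 58 of 364 antisense genes were higher and 128 lower.

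**Figure D1:**
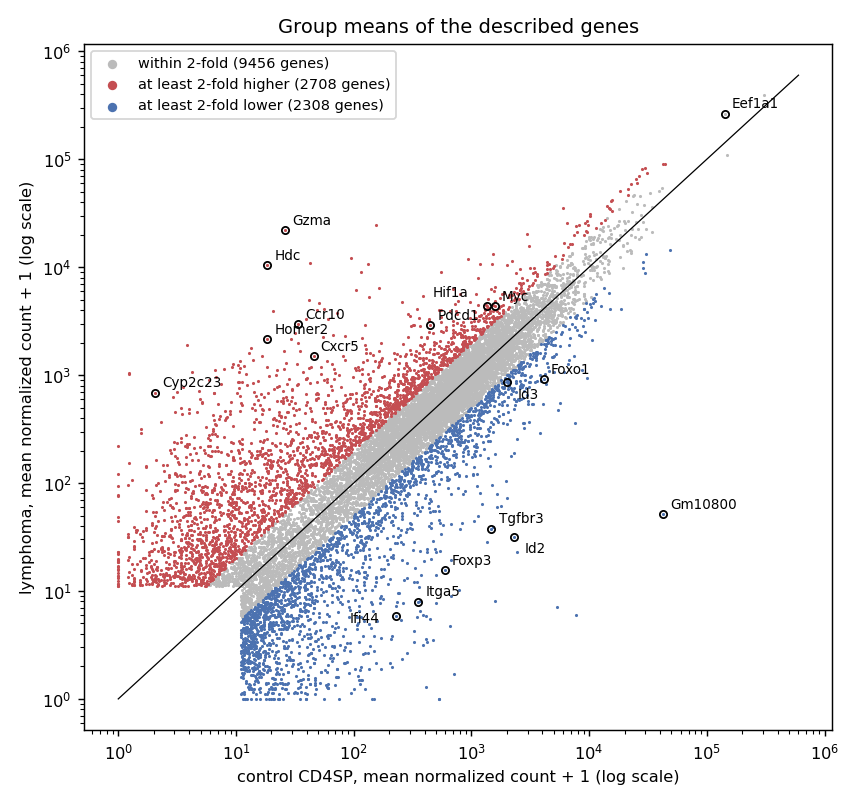
Control mean on the horizontal axis and lymphoma mean on the vertical axis for the 14472 genes, both as normalized count + 1 on log scales, with the line of equality. The 2708 red genes lie at least 2-fold above it and the 2308 blue genes at least 2-fold below; Gzma and Id2 are marked far to either side.

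The targeted genes were lower in the lymphomas. *Id2* had a control mean of 2293 and a lymphoma mean of 30.5, a log2 ratio of -6.19, on chromosome 12 from 25093799 to 25097140 of mm10, 72.9-fold lower. *Id3* stood at 1991 normalized counts in control cells against 857 in the lymphomas, a log2 ratio of -1.22, on chromosome 4 from 136143497 to 136145755. The group means were thus much further apart for *Id2* than for *Id3*. A gene total counts reads from every exon that remains, so the *Id3* mean does not measure deletion. Non-malignant CD4SP thymocytes of the same Id2_Id3_dKO label had 6.82 normalized counts of *Id2* and 879.7 of *Id3*.

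Among the E proteins, the group means moved unequally. *Tcf4* had 252 normalized counts in control cells and 27.7 in the lymphomas, which is a log2 ratio of -3.14. For *Tcf3* the means were 3084 in control cells and 1869 in the lymphomas, and for *Tcf12* they were 1728 in control cells and 1992 in the lymphomas, so both stayed within 2-fold. *Id1*, another inhibitor of the same family, averaged 26.4 in control cells and 4.92 in the lymphomas, and *Id4* was under the limit of 10 in both groups.

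Because E proteins act through E-boxes, the 250 bases before the annotated start were read for the genes with a RefSeq promoter entry (GRCm38.p6), which covered 10301 described genes. Where a gene had several listed starts, only the first was counted. CAGCTG, which reads the same on both strands, and CACCTG, searched on both strands and thus also as CAGGTG, were the motifs searched, and they do not overlap one another. At least 1 of them was present in 25.4% of all these windows, in 31.5% of the 1868 windows of genes at least 2-fold higher in the lymphomas, in 27.7% of the 1390 of genes at least 2-fold lower and in 23.4% of the 7043 others. Windows of *Gzma* and *Homer2*, both far higher in the lymphomas, are shown with the matches in capitals. Both were chosen after their values and matches were seen. The window of *Id2*, far lower in the lymphomas, also held a match, CAGCTG 196 bases before the start. *Gzma* lies at chr13:113100982-113101231 on the minus strand, and the *Homer2* window at chr7:81692966-81693215, also on the minus strand, belongs to the second of its 2 listed starts. This *Homer2* window was therefore not among the windows counted.
Gzma: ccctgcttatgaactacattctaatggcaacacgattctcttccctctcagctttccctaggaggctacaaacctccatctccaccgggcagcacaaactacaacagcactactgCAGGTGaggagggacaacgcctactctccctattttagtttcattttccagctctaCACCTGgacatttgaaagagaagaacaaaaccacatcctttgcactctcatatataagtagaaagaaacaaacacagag
Homer2: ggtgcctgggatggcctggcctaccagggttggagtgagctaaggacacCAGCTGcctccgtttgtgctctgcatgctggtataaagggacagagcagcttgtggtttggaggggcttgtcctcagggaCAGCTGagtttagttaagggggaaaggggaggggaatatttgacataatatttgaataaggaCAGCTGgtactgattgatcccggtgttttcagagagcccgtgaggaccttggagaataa
The *Gzma* window holds CAGGTG 135 bases and CACCTG 79 bases before the start, and the *Homer2* window holds CAGCTG 201, 121 and 59 bases before it. These are letter matches, and no binding was measured here.

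The genes of the coreceptors and of the TCR complex, whose products were used for sorting, were mostly within 2-fold or lower. Of 21 coreceptor and TCR complex genes, 1 was at least 2-fold higher and 6 were lower, with a median log2 ratio of -0.44. The CD3 chains *Cd3d* and Cd3g stayed within 2-fold, with *Cd3d* at 7903 in control cells and 8224 in the lymphomas. *Cd4* had a control mean of 15039 and a lymphoma mean of 4110.2, a log2 ratio of -1.87, while the coreceptor gene *Cd8a* was the higher one, at 128 in control cells and 1388 in the lymphomas. Of 11 CD8 T cell markers 5 were higher and 2 lower. The lymphoma means of both coreceptors mix 4 tumors sorted on CD4 with 2 sorted on CD8. The TCR beta constant gene *Trbc1* stood at 7492 normalized counts in control cells against 1502 in the lymphomas, a log2 ratio of -2.32, whereas the neighboring *Trbc2* was at 18317 in control cells and 19841 in the lymphomas.

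Factors that set the CD4 and CD8 lineages were measured next. Among 17 of them, 4 were at least 2-fold lower and 1 was higher, against 15.9% and 18.7% of all genes. *Zbtb7b* had 6635 normalized counts in control cells and 1258 in the lymphomas, which is a log2 ratio of -2.40; this gene encodes ThPOK, which commits thymocytes to the CD4 lineage. *Runx3*, its counterpart in the CD8 lineage, was at 1154 in control cells and 399 in the lymphomas. *Satb1*, a chromatin organizer of thymocytes, averaged 28784 in control cells and 9718 in the lymphomas. Tcf7, Lef1 and *Gata3*, which T cells need throughout their development, stayed within 2-fold, with *Gata3* at 2332 in control cells and 3049 in the lymphomas. The member on the higher side was *Tox2*, at 134 in control cells and 922 in the lymphomas. Of 13 genes of CD4 and CD8 double-positive thymocytes, the preceding stage, 3 were higher and 2 lower. The higher ones were *Cd8a*, given above, *Arpp21* and *Lztfl1*. *Arpp21* had 46.7 in control cells and 673 in the lymphomas, and *Lztfl1* 1125 in control cells and 2668 in the lymphomas. On the lower side, *Rag1* had 14.2 in control cells and 0.423 in the lymphomas. *Rag2* and *Ptcra* were under 10 in both groups.

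Markers of other cell types were measured beside these genes. A marker that is scarce in control cells reaches 10 only through the lymphoma mean, which nearly fixes its side. The counts of higher markers here and in the next paragraph are therefore no support by themselves. Over all genes with 1 mean under 10, 41.3% were higher and 43.7% lower. Of 20 B cell markers, 13 reached a mean of 10, with 10 higher and 1 lower. Their summed mean was 2030.0 in control cells, 14800.0 in the lymphomas and 8470 in Id2/Id3-deficient CD4SP cells. The defining B cell genes *Ms4a1* and *Pax5* were under 10 in both groups, with lymphoma means of 5.82 and 7.59. Immunoglobulin and plasma cell genes did not follow them. *Igkc* had a control mean of 9.41 and a lymphoma mean of 1247, a log2 ratio of 6.91, and *Jchain* was at 2.53 in control cells and 768 in the lymphomas. The immunoglobulin heavy chain constant gene *Ighm* averaged 1183 in control cells and 10603 in the lymphomas, by far the largest lymphoma mean among these genes. The kinase gene *Blk*, which B cells and some gamma-delta T cells express, averaged 11.5 in control cells and 802 in the lymphomas.

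Granulocyte and mast cell markers reached 10 in 10 of 17 cases, 9 of them higher, and summed to 126 in control cells and 11400.0 in the lymphomas, a sum that *Hdc* dominates. The neutrophil genes *S100a8* and *S100a9* had lymphoma means of 145 and 230.0 against control means of 1.59 and 2.87, while *Ly6g*, *Elane* and *Mcpt8* stayed under 10. Of 27 myeloid and dendritic cell markers 16 reached 10, 11 of them higher and 0 lower, and their sum was 2150.0 in control cells and 1880.0 in the lymphomas. The cathepsin gene *Ctss*, at 1942 in control cells and 1022 in the lymphomas, held most of both sums, and without it, a choice made after its values were seen, they were 213 and 861. The lysozyme gene *Lyz2* averaged 3.82 in control cells and 123 in the lymphomas. For 14 erythroid and platelet markers the sums were 220.0 and 507, with 5 of 7 higher, among them the globin gene *Hbb-bs* at 17.3 in control cells and 127 in the lymphomas. The 24 stromal, epithelial and endothelial markers summed to 2090.0 and 7580.0, and 8 of them reached 10, 4 higher and 2 lower. *Epcam*, an epithelial adhesion gene, averaged 70.7 in control cells and 3797 in the lymphomas, and the collagen gene *Col1a1* 24.7 in control cells and 1663 in the lymphomas, while *Pdgfra*, *Pdgfrb*, *Col1a2* and *Krt5* were under 10 in both groups. Germinal center B and plasma cell markers had 4 higher and 1 lower of 10, and sums of 2890.0 and 3890.0. How far admixed cells account for these means was not tested.
Genes that differ between the sexes were compared as a further check. *Ddx3y*, *Eif2s3y*, *Kdm5d* and *Uty*, genes of the Y chromosome, averaged 663, 250.3, 209 and 101 in control cells and 8.04, 4.42, 2.81 and 7.2 in the lymphomas. *Xist*, which is transcribed from the inactive X chromosome of females, was at 10461 and 10477. Y-linked means were thus much lower in the lymphomas while *Xist* was alike, and the part of sex in other ratios was not tested. Id2/Id3-deficient CD4SP cells, set beside the lymphomas elsewhere in the text, averaged 1478 for *Ddx3y* and 19.7 for *Xist*. Of the 483 described genes of the X chromosome 86 were higher and 87 lower, shares close to those over all genes.

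Of the 12 smallest log2 ratios among named genes with a larger mean of at least 100 and no antigen receptor segment, 8 belonged to gene models that share sequence with *Gm10800*, a model that resembles satellite repeats. Together 13 described models had at least 20% of their 20-base words in common with it on either strand, 10 of them on chromosome 9. They took up 0.46% of the summed mean in control cells, 0.8% in Id2/Id3-deficient CD4SP cells, 0.000605% in the lymphomas, 0.00522% in *Id3*-/- CD4SP cells and 0.00154% in TFH cells. *Gm10800* itself averaged 42675 in control cells and 50.6 in the lymphomas, and 78691, 489 and 111 in the other 3 groups. The level was thus low in the lymphomas, TFH and *Id3*-/- cells and high in the other 2 groups, one of which lacks *Id2* and *Id3*. The part of library preparation in it was not tested.

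**Figure D2:**
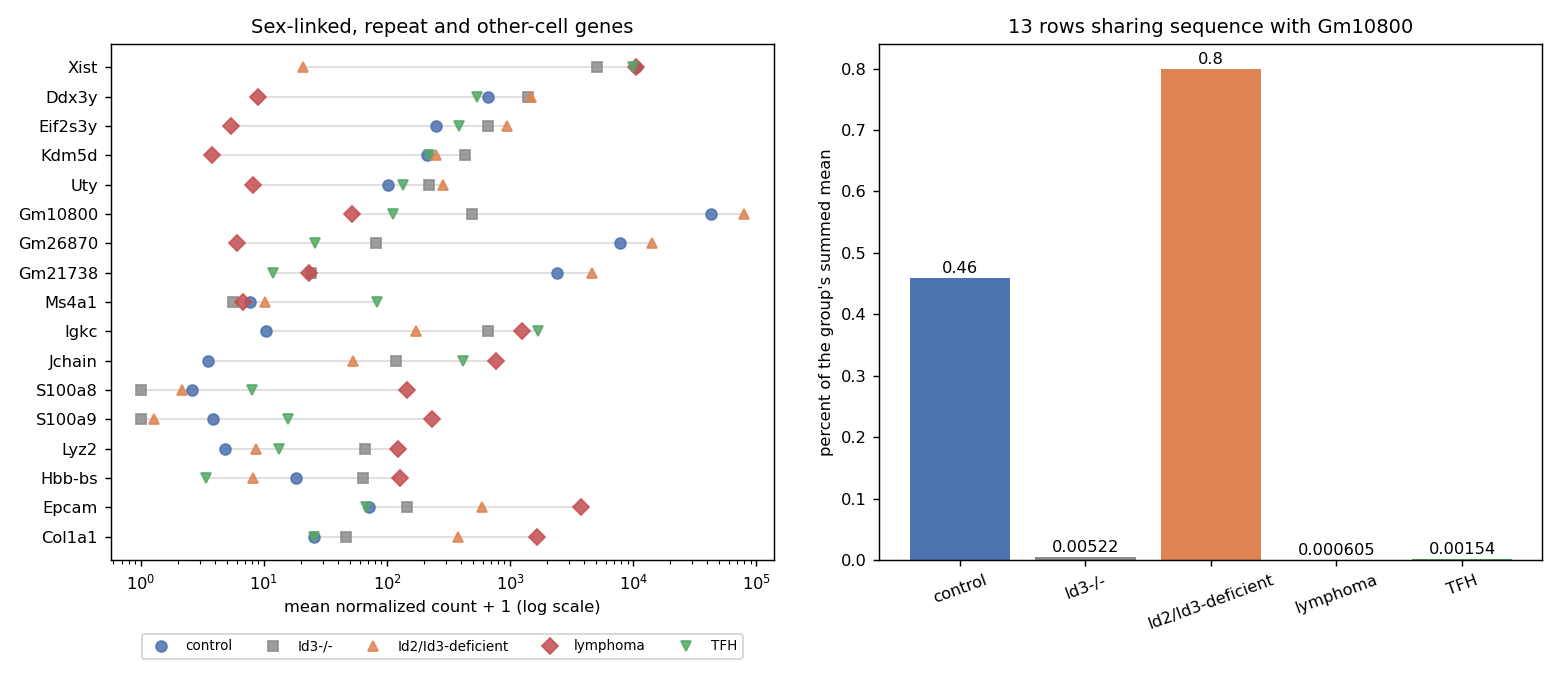
Left, group means + 1 (log scale) of sex-linked genes, repeat-like models and markers of other cell types, 1 symbol per group. Right, the share of the summed mean held by 13 models that share sequence with Gm10800, which is 0.46% in control cells and 0.000605% in the lymphomas.

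Apart from these models the smallest ratios belonged to genes of several kinds. *Pyroxd2*, an oxidoreductase gene, stood at 658 normalized counts in control cells against 3.72 in the lymphomas, a log2 ratio of -7.13, and *Gpc2*, a cell surface proteoglycan gene, had 255 normalized counts in control cells and 1.36 in the lymphomas, which is a log2 ratio of -6.77. *Rpl27-ps3*, a ribosomal protein pseudogene at 524 in control cells, and *Gm20402* at 143 were listed at 0 in the lymphomas. Reads of a pseudogene cannot be told apart with certainty from those of its parent gene, and the parent *Rpl27* had 3305 in control cells and 8831 in the lymphomas.

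At the other end, the largest ratios belonged to genes of unlike kinds. *Gzma* had a control mean of 25.2 and a lymphoma mean of 21911, a log2 ratio of 9.71, an 837-fold difference; it encodes the serine protease granzyme A of cytotoxic and innate-like T cells and lies on chromosome 13 from 113093825 to 113100981. *Hdc*, the gene of the enzyme that makes histamine, stood at 17.3 normalized counts in control cells against 10372 in the lymphomas, a log2 ratio of 9.15. *Kcnj2*, an inward rectifier potassium channel, had 3.27 normalized counts in control cells and 1056 in the lymphomas, which is a log2 ratio of 7.95. These genes were also well above control in Id2/Id3-deficient CD4SP cells, with means of 5809 for *Gzma*, 1949.7 for *Hdc* and 403 for *Kcnj2*. The secreted glycoprotein gene *Stc2* had 19.8 in control cells and 3910.0 in the lymphomas, and the pseudogene-like *Rps3a2* 41.1 in control cells and 11031 in the lymphomas, with 2467 and 14021 in Id2/Id3-deficient CD4SP cells. *Gm13346* averaged 1.94 in control cells and 628 in the lymphomas, with 151 in Id2/Id3-deficient CD4SP cells. Others had low means in Id2/Id3-deficient CD4SP cells. The cytochrome gene *Cyp2c23* had a lymphoma mean of 688 and a mean of 6.82 in Id2/Id3-deficient CD4SP cells, the germ cell gene *Tex19.2* had 693 and 0.857, and the histone variant *H2al1g* 1053 and 22. *Ear6*, an eosinophil ribonuclease gene, had 315 and 3.83. *Gm5166* averaged 219 in the lymphomas and was listed at 0 in the other 4 groups.

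The largest differences of means in absolute terms were led by *Eef1a1* on the higher side and by the repeat-like *Gm10800* on the lower side. *Eef1a1* and *Eef2*, elongation factors, averaged 142221 and 44296 in control cells and 264274 and 90046 in the lymphomas. The poly(A)-binding protein gene *Pabpc1* had a control mean of 28329.6 and a lymphoma mean of 81189, a log2 ratio of 1.52. The chaperone gene *Hsp90ab1* had 30027 in control cells and 82362 in the lymphomas, and the ribosomal protein genes Rplp0, Rps4x and *Rpl4* were each more than 2-fold higher, with *Rpl4* at 26745 in control cells and 69416 in the lymphomas; Rplp0 and *Eef2* were within 2-fold once the sums were made equal. *Gm42418*, which overlaps ribosomal RNA sequence, was at 306681 in control cells and 390147 in the lymphomas. On the lower side, *Malat1*, a nuclear long noncoding RNA, averaged 48681 in control cells and 14486 in the lymphomas. *Arhgef1* and *Arhgap45*, regulators of small GTPases, had 29595 and 28746 in control cells and 8771 and 11124 in the lymphomas. *Chd3*, a subunit of the NuRD chromatin remodeler, averaged 18694 in control cells and 4102 in the lymphomas, and *Actb*, at 147442 in control cells and 110321 in the lymphomas, stayed within 2-fold. *Satb1* and the MHC class I gene *H2-K1*, whose values are given with their lists, were also among the 8 on that side.

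Genes of T cell quiescence were lower in the lymphomas. Of 19 genes in the list 11 were at least 2-fold lower and 1, Tob1, was higher, a median log2 ratio of -1.17 against 0.06 over all genes; Tob1 fell within 2-fold once the sums were made equal. *Foxo1* stood at 4103 normalized counts in control cells against 913 in the lymphomas, a log2 ratio of -2.17; *Foxo1* is the forkhead factor that keeps naive T cells quiescent and drives their homing receptors. Its relative *Foxo3* had 1247 in control cells and 803 in the lymphomas, lower but within 2-fold. The study describes both *Foxo1* and *Foxo3* as substantially decreased in the lymphomas, and its own fold changes and p-values were not used here. *Bach2*, a repressor of effector genes, had 4082 normalized counts in control cells and 543 in the lymphomas, which is a log2 ratio of -2.91, and *Foxp1* was at 4343 in control cells and 1301 in the lymphomas. *Klf2*, which controls exit from the thymus, averaged 4467 in control cells and 1989 in the lymphomas, and its target *S1pr1*, the exit receptor, 2748 in control cells and 813 in the lymphomas. *Ccr7*, the receptor that guides naive T cells into lymph nodes, had a control mean of 8653 and a lymphoma mean of 1108, a log2 ratio of -2.96. *Il7r*, the interleukin-7 receptor chain that naive cells also carry, averaged 3997 in control cells and 3392 in the lymphomas and stayed within 2-fold.

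TGF-beta signals restrain T cells and require surface receptors and SMAD proteins. Of 25 genes 12 were at least 2-fold lower and 5 higher. Among receptors, *Tgfbr3* stood at 1476 normalized counts in control cells against 36.7 in the lymphomas, a log2 ratio of -5.29. The type I receptor *Acvrl1* had 1799 in control cells and 60.3 in the lymphomas, while *Tgfbr2* at 4784 in control cells and 4599 in the lymphomas and *Tgfbr1* stayed within 2-fold. Feedback inhibitors were low as well, with *Smad7* at 1652 in control cells and 77.3 in the lymphomas and *Skil* at 2736 in control cells and 359 in the lymphomas. Ligands divided, *Tgfb1* being at 4509 in control cells and 2034 in the lymphomas and *Tgfb3* at 20.9 in control cells and 219.6 in the lymphomas. *Eng*, a coreceptor, had 384 in control cells and 1105 in the lymphomas, and its mean in Id2/Id3-deficient CD4SP cells was 37.5.
TFH cells are the CD4 T cells that help B cells in germinal centers. Among 20 TFH genes 12 were at least 2-fold higher in the lymphomas and 1, *Il6ra*, was lower, with a median log2 ratio of 1.28; with equal sums the counts were 10 and 2. *Cxcr5* had 44.6 normalized counts in control cells and 1492 in the lymphomas, which is a log2 ratio of 5.03; it encodes the receptor that brings TFH cells into B cell follicles. *Pdcd1*, which encodes the inhibitory receptor PD-1, had a control mean of 448 and a lymphoma mean of 2881, a log2 ratio of 2.68. The adaptor SAP and its receptor *Slamf6* followed, *Sh2d1a* at 829.7 in control cells and 2328 in the lymphomas and *Slamf6* at 531 in control cells and 4012 in the lymphomas. *Il21*, the main TFH cytokine, had 109 in control cells and 440.4 in the lymphomas. *Bcl6*, the master regulator of TFH cells, was within 2-fold at 529.9 in control cells and 402 in the lymphomas and had 3543 in TFH cells, and *Ascl2* was under 10 in both lymphomas and control cells.

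Innate-like T cell factors were on both sides. Of 19 genes 4 were higher and 4 lower, shares close to the 18.7% and 15.9% over all genes, and 1 of the lower ones was the deleted *Id2*. *Zbtb16* stood at 116 normalized counts in control cells against 2211 in the lymphomas, a log2 ratio of 4.24; this gene encodes PLZF, the factor that defines NKT and other innate-like lineages. *Myb*, a factor of thymocyte proliferation and NKT development, had 694 normalized counts in control cells and 6336 in the lymphomas, which is a log2 ratio of 3.19. *Sox13*, known from gamma-delta T cells, had a control mean of 127 and a lymphoma mean of 1616, a log2 ratio of 3.66. Lower were *Rora* at 323 in control cells and 52.1 in the lymphomas and *Tbx21*, which encodes T-bet, at 62.7 in control cells and 16.7 in the lymphomas, and *Eomes* was at 37.2 and 37. Of gamma-delta and NK cell markers 6 of 13 were higher and 1 lower, and their summed mean was 601 and 25200.0, most of it *Gzma*. *Tcrg-C2* averaged 46.3 in control cells and 365 in the lymphomas, while *Tcrg-C1* and *Tcrg-C4*, at 519 and 1717 in Id2/Id3-deficient CD4SP cells, had lymphoma means of 57.5 and 67.5.

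Cytotoxic granule genes lay on both sides of control: 4 of 12 were higher and 3 lower. Beside *Gzma*, *Cst7*, a granule cathepsin inhibitor, had 42 in control cells and 1193 in the lymphomas, and *Srgn*, the granule proteoglycan, 1050.1 in control cells and 3895 in the lymphomas. *Gzmb* averaged 48.9 in control cells and 2.63 in the lymphomas, perforin (*Prf1*) 62.6 and 51, and *Fasl* 35.1 and 3.89. Of 13 NK receptor genes with a mean of at least 10, 7 were higher and 3 lower; 7 more were under 10 in both groups. *Klra1* stood at 22 normalized counts in control cells against 791 in the lymphomas, a log2 ratio of 5.10, and *Crtam* had 47.8 in control cells and 680.3 in the lymphomas. *Klra9*, a relative of *Klra1*, had 64.3 in control cells and 1.27 in the lymphomas, and reads of Ly49 genes can be split between near-identical copies.

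Regulatory T cell genes divided. Of 12 genes 7 were at least 2-fold lower and 4 higher. *Foxp3*, the lineage factor, had 591 normalized counts in control cells and 14.6 in the lymphomas, which is a log2 ratio of -5.24. *Il2ra* averaged 455 in control cells and 67.5 in the lymphomas, *Tnfrsf4*, which encodes OX40, 1582 in control cells and 186 in the lymphomas, and *Ikzf4* 1072 in control cells and 177 in the lymphomas. *Izumo1r*, the folate receptor FR4, and *Ctla4* were on the higher side, *Izumo1r* at 3064 in control cells and 15558 in the lymphomas and *Ctla4* at 279 in control cells and 756 in the lymphomas.

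Of 18 checkpoint and costimulatory receptor genes, PD-1 included, 8 were higher and 5 lower. *Lag3* had a control mean of 38 and a lymphoma mean of 912, a log2 ratio of 4.55, and *Tigit* stood at 26 normalized counts in control cells against 581 in the lymphomas, a log2 ratio of 4.43. *Havcr2*, which encodes TIM-3, was under 10 in both groups. The costimulatory receptors *Tnfrsf4* and *Tnfrsf18* and the inhibitory *Vsir* (VISTA) were lower, *Tnfrsf18* at 1849 in control cells and 437 in the lymphomas and *Vsir* at 2604 in control cells and 797 in the lymphomas. *Cd28* had 5233 in control cells and 9473 in the lymphomas and stayed within 2-fold.
Trafficking receptors were on both sides. Of 19 chemokine and lipid receptors 9 were higher and 5 lower. *Ccr10*, the receptor for skin and mucosal chemokines, had 32.5 normalized counts in control cells and 2954 in the lymphomas, which is a log2 ratio of 6.46, and *Cxcr4*, the receptor for CXCL12, had 474 in control cells and 2435 in the lymphomas. *Ccr2* averaged 67.8 in control cells and 1036 in the lymphomas. *Ccr8* had a control mean of 1141 and a lymphoma mean of 48.2, a log2 ratio of -4.54, and *Ccr9*, the gut-homing receptor of thymocytes, stayed within 2-fold at 5827 in control cells and 7845 in the lymphomas. Chemokine genes themselves were scarce, with 16 of 21 under 10 in both groups, and of the others 3 were higher and 1 lower. Integrin subunits showed 5 higher and 5 lower of 15. *Itga5*, the alpha chain of the fibronectin receptor, stood at 352 normalized counts in control cells against 6.95 in the lymphomas, a log2 ratio of -5.47. *Itga4*, the alpha chain of VLA-4, had 2224 in control cells and 11340.0 in the lymphomas, and *Itgae*, which binds E-cadherin, 86.3 in control cells and 604 in the lymphomas.

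Cytokines and their receptors were measured as well. Of 13 effector cytokine genes 6 were higher and 4 lower, and *Ifng*, at 6.81 and 15, and Il17a, under 10 in both groups, were near background. *Csf1*, the macrophage growth factor, had 18.2 normalized counts in control cells and 487 in the lymphomas, which is a log2 ratio of 4.67. *Ltb*, which lymphoid tissue organization requires, had 6064 in control cells and 1067 in the lymphomas. *Il4* averaged 16.8 in control cells and 92.7 in the lymphomas. Of 24 receptor chains 5 were higher and 5 lower; *Il6ra* had 1375 in control cells and 168 in the lymphomas and *Il17rb* 605 in control cells and 1845 in the lymphomas. Among JAK, STAT and SOCS genes 6 of 22 were lower and 2 higher. *Stat4*, the transducer of IL-12 signals, had a control mean of 436 and a lymphoma mean of 38.6, a log2 ratio of -3.46. *Cish*, a feedback inhibitor that STAT5 induces, had 641 in control cells and 107 in the lymphomas, and *Stat5a* and *Stat3* stayed within 2-fold. The SLAM receptor gene *Slamf7* stood at 13.6 normalized counts in control cells against 469.5 in the lymphomas, a log2 ratio of 5.01, and *Slamf1* was at 611 in control cells and 168 in the lymphomas.

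**Figure D3:**
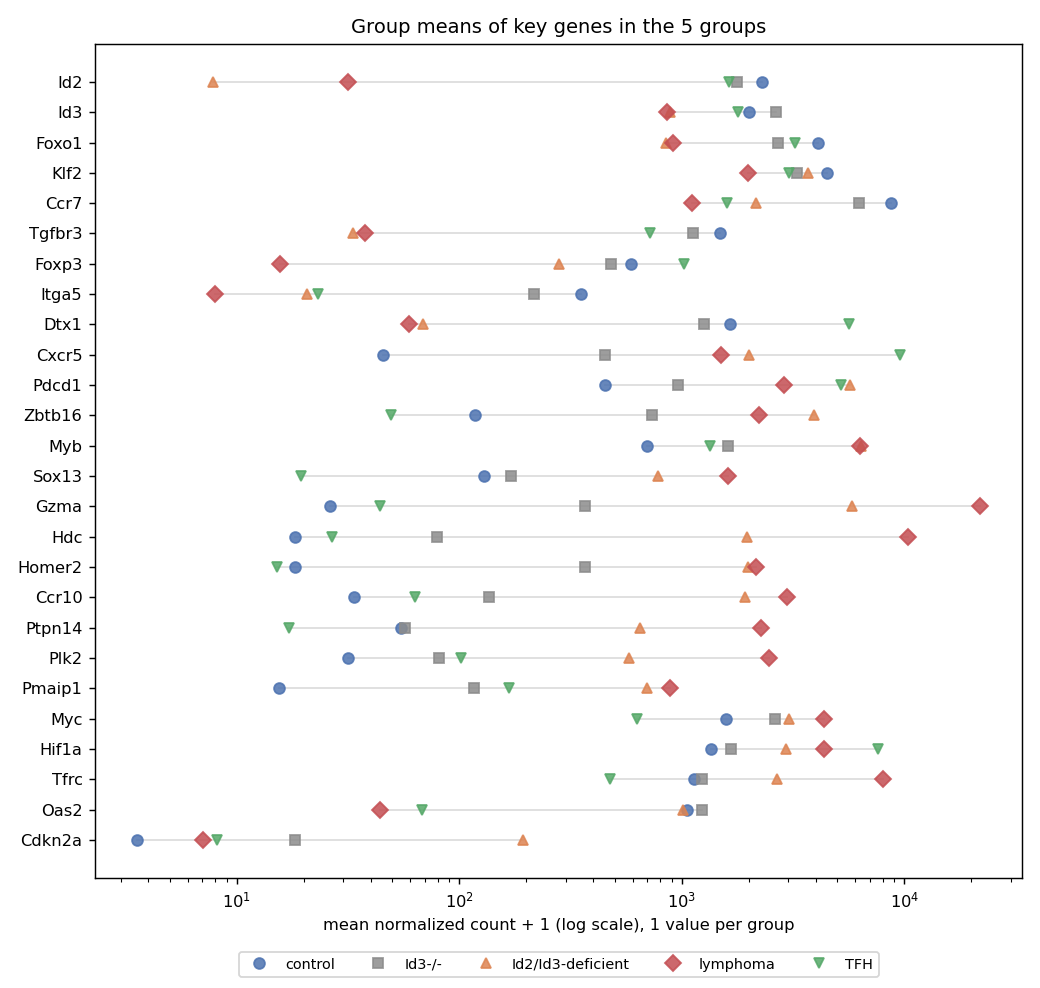
Group means + 1 (log scale) of 26 genes in the 5 groups, 1 symbol per group and no error bars since the table holds none. Lymphoma and Id2/Id3-deficient CD4SP symbols lie side by side for Foxo1, Tgfbr3, Dtx1, Myb and Homer2 and far apart for Oas2 and Cdkn2a.

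Genes of TCR feedback and of the immediate early response were on both sides. Of 24 feedback genes 7 were higher and 6 lower. The nuclear receptor gene *Nr4a1*, a marker of TCR signal strength, had 5274 in control cells and 1551 in the lymphomas and its relative *Nr4a3* 1862 in control cells and 360.5 in the lymphomas. *Egr1* had 4829 in control cells and 6735 in the lymphomas and stayed within 2-fold. *Spry2*, an inhibitor of RAS signaling, had 23.1 normalized counts in control cells and 197 in the lymphomas, which is a log2 ratio of 3.04. Of 20 AP-1 and immediate early genes 7 were higher and 2 lower. The stress-induced chaperone gene *Hspa1a* had a control mean of 65.1 and a lymphoma mean of 2369, a log2 ratio of 5.16. *Fos* and *Atf3* were higher, *Fos* at 307 in control cells and 1554 in the lymphomas and *Atf3* at 3.95 in control cells and 128 in the lymphomas, whereas *Jun* was lower at 526 in control cells and 44.8 in the lymphomas. These genes can be induced while tissue is handled, and whether this accounts for their means was not tested. Among 22 NF-kB genes 7 were lower and 2 higher, the inhibitor *Tnfaip3* (A20) at 1402 in control cells and 4194 in the lymphomas being higher and *Relb* at 1159 in control cells and 395 in the lymphomas lower.

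Some ligands of the WNT and NOTCH pathways were higher in the lymphomas. *Wnt10a* stood at 32.4 normalized counts in control cells against 1963 in the lymphomas, a log2 ratio of 5.88, and *Wnt6* had 1.74 in control cells and 203 in the lymphomas. Of 22 WNT genes 8 were higher and 6 lower, and the shared effector *Ctnnb1* and the target *Axin2* stayed within 2-fold, with *Axin2* at 439.9 in control cells and 526 in the lymphomas. Of 17 NOTCH genes 4 were higher and 5 lower. *Dtx1*, a NOTCH target and E3 ligase, had 1649.9 normalized counts in control cells and 58.4 in the lymphomas, which is a log2 ratio of -4.80, while the target *Hes5* had 4.47 in control cells and 78.4 in the lymphomas and the ligand *Jag2* 66.4 in control cells and 921 in the lymphomas. *Notch1* was within 2-fold at 3451 in control cells and 3038 in the lymphomas.
In the PI3K, AKT and mTOR list, against 18.7% higher and 15.9% lower over all genes, 6 of 40 genes were higher and 9 lower. *Homer2*, a scaffold protein, had a control mean of 17.3 and a lymphoma mean of 2143, a log2 ratio of 6.87, and it had 1980.5 in Id2/Id3-deficient CD4SP cells. *Pik3cb*, a catalytic subunit, stood at 109.7 normalized counts in control cells against 5.56 in the lymphomas, a log2 ratio of -4.08. The regulatory subunit *Pik3r1* had 2321 in control cells and 763 in the lymphomas, and the inhibitor *Pik3ip1* 2257 in control cells and 964 in the lymphomas. *Mtor*, *Tsc1* and *Tsc2* stayed within 2-fold, with *Mtor* at 854 in control cells and 793 in the lymphomas, and *Eif4ebp1*, an mTORC1 substrate, was higher at 107 in control cells and 313 in the lymphomas. RAS and RAP1 regulators were lower for 5 of 23 genes and higher for 2. *Rasgrp2*, an exchange factor for RAP1, had 5626 normalized counts in control cells and 546 in the lymphomas, which is a log2 ratio of -3.36, and *Rapgef3*, another, 14.9 in control cells and 368 in the lymphomas. Among PTPN phosphatases 5 of 16 were higher and 1 lower. *Ptpn14* had a control mean of 53.8 and a lymphoma mean of 2267, a log2 ratio of 5.37, and *Ptpn13* had 57.9 in control cells and 859.6 in the lymphomas, while *Ptpn6* and *Ptpn22*, which restrain TCR signaling, stayed within 2-fold.
Proliferation genes were higher in the lymphomas. Of 49 DNA replication genes 26 were at least 2-fold higher and 0 lower, with a median log2 ratio of 1.07. Of 61 mitosis and spindle genes 34 were higher and 0 lower, with a median of 1.05. Many of these ratios sit next to the 2-fold limit: with equal sums the counts were 19 and 17, and the medians 0.86 and 0.85. The replicative helicase gene *Mcm6* stood at 1459.7 normalized counts in control cells against 6241 in the lymphomas, a log2 ratio of 2.10. *Cdc6*, which loads that helicase, had 183 in control cells and 742 in the lymphomas, and *Uhrf1*, which maintains DNA methylation at the fork, 847 in control cells and 3133 in the lymphomas. In mitosis, *Top2a* averaged 2765 in control cells and 6016 in the lymphomas, *Ccnb2* 388 in control cells and 1131 in the lymphomas, and *Mki67*, the common proliferation marker, 2179 in control cells and 3935 in the lymphomas, the last within 2-fold. Of 32 repair genes 11 were higher and 1, *Mgmt*, was lower, at 37.8 in control cells and 6.48 in the lymphomas.

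Cell cycle entry genes were mixed, with 7 of 25 higher and 2 lower. *Cdc25b*, a phosphatase that activates cyclin-dependent kinases, had 554 normalized counts in control cells and 3427 in the lymphomas, which is a log2 ratio of 2.63, and *Ccne1*, cyclin E1, had 288 in control cells and 852 in the lymphomas. Lower were *Ccnd2*, cyclin D2, at 14610.0 in control cells and 5781 in the lymphomas and the tumor suppressor *Rb1* at 1132 in control cells and 354 in the lymphomas. The inhibitor *Cdkn1b* (p27) had 2682 in control cells and 1127 in the lymphomas. *Cdkn2a*, which encodes p16INK4a and p19ARF and which the study names for these tumors, was no member of the described genes, with means of 2.57 in control cells, 6.01 in the lymphomas and 192 in Id2/Id3-deficient CD4SP cells. Its neighbor *Cdkn2b* was under 10 in control cells and lymphomas as well. A gene total does not separate the transcripts of *Cdkn2a*.

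p53 targets gave 6 higher and 2 lower of 23. *Plk2*, a kinase that p53 induces, had a control mean of 30.7 and a lymphoma mean of 2452, a log2 ratio of 6.27. *Pmaip1*, which encodes the proapoptotic NOXA, stood at 14.5 normalized counts in control cells against 886 in the lymphomas, a log2 ratio of 5.84. *Trp53* itself had 3693 in control cells and 4642 in the lymphomas, and *Cdkn1a* (p21) 8.66 in control cells and 78 in the lymphomas. In the BCL2 family 4 of 15 genes were higher and 5 lower. The survival genes *Bcl2* and *Mcl1* were lower, *Bcl2* at 3463 in control cells and 856 in the lymphomas and *Mcl1* at 7955 in control cells and 3566 in the lymphomas. So was the proapoptotic *Bcl2l11* (BIM), at 1622 in control cells and 389.7 in the lymphomas, while *Bmf* was higher at 123 in control cells and 623 in the lymphomas.

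MYC drives growth, ribosome production and nucleotide synthesis. *Myc* had 1576 normalized counts in control cells and 4326 in the lymphomas, which is a log2 ratio of 1.46, and 3015 in Id2/Id3-deficient CD4SP cells. Of 41 MYC target and ribosome biogenesis genes 25 were at least 2-fold higher and 0 lower, and 15 were higher with equal sums. The transferrin receptor gene *Tfrc* had a control mean of 1137 and a lymphoma mean of 7969, a log2 ratio of 2.81. *Ncl*, nucleolin, had 7767 in control cells and 24031 in the lymphomas, and *Npm1*, nucleophosmin, 6059.5 in control cells and 16728 in the lymphomas. Among cytosolic ribosomal protein genes 16 of 46 were higher and 0 lower, with a median log2 ratio of 0.82. Many ribosomal protein genes have pseudogene copies that can take up their reads. The MYC partner and antagonist genes stayed closer to control: 1 of 10, *Myc* itself, was higher and 2 were lower, among them the antagonist *Mxd1* at 984 in control cells and 418 in the lymphomas.

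Metabolic genes were higher in glycolysis and in serine and one-carbon metabolism. Of 27 glycolysis genes 13 were higher and 3 lower, including the enzyme genes *Tpi1* at 652 in control cells and 3948 in the lymphomas and *Pgam1* at 698 in control cells and 3158 in the lymphomas. The lactate exporter gene *Slc16a3* stood at 116 normalized counts in control cells against 1012 in the lymphomas, a log2 ratio of 3.11. Of 25 serine, one-carbon and amino acid uptake genes 13 were higher and 1 lower. *Slc38a1*, a glutamine transporter, had 1527 normalized counts in control cells and 13184 in the lymphomas, which is a log2 ratio of 3.11, and *Mthfd1l*, a mitochondrial folate enzyme, had 436 in control cells and 2514 in the lymphomas. Oxidative phosphorylation genes leaned higher but mostly within 2-fold, with 1 of 43 at least 2-fold higher and 0 lower. Their median log2 ratio was 0.54 against 0.06 over all genes, and 0.34 against -0.14 with equal sums. Their means summed to 83800 in control cells and 122000 in the lymphomas. *Hif1a*, the hypoxia factor, had a control mean of 1357 and a lymphoma mean of 4361, a log2 ratio of 1.68, and 7 of 24 genes of its list were higher and 2 lower. *Egln3*, a hypoxia-induced hydroxylase, had 146 in control cells and 1519 in the lymphomas, while *Vegfa* had 41.6 in control cells and 6.42 in the lymphomas. Of 32 cholesterol and SREBP genes 7 were higher and 3 lower; the cholesterol exporter gene *Abca1* had 669.7 in control cells and 18.4 in the lymphomas.

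Chromatin regulators were close to the shares over all genes. In the DNA methylation, TET and Polycomb list 4 of 29 genes were higher and 4 lower, against 18.7% and 15.9%. *Tet1*, a methylcytosine oxidase, had 976 in control cells and 313 in the lymphomas, and *Ezh2*, the Polycomb methyltransferase, 1464 in control cells and 1519.6 in the lymphomas. Of 14 homeobox and related genes with a mean of at least 10, 8 were lower and 5 higher, and 23 others were under 10 in both groups. *Hoxa7* stood at 68.9 normalized counts in control cells against 0.359 in the lymphomas, a log2 ratio of -5.69, and *Hoxa3*, *Hoxa4*, *Hoxa5* and *Hoxa6* of the same cluster had lymphoma means under 1. *Hhex* had 15.8 normalized counts in control cells and 474 in the lymphomas, which is a log2 ratio of 4.82, and *Lmo2* and *Lyl1*, oncogenes of T cell leukemia, had 28.1 in control cells and 236 in the lymphomas and 4.63 in control cells and 61.8 in the lymphomas. Of 18 histone genes 4 were higher and 1 lower, the linker histone *Hist1h1c* being at 173 in control cells and 1425 in the lymphomas.
Interferon-stimulated genes were lower in the lymphomas. Of 42 genes 30 were at least 2-fold lower and 5 higher, with a median log2 ratio of -1.57. *Ifi44* had a control mean of 228 and a lymphoma mean of 4.88, a log2 ratio of -5.29. The antiviral genes *Oas2* and *Ifit1* had 1056 and 1491 in control cells and 43.2 and 95.8 in the lymphomas. *Irf7*, a factor that induces interferon genes, had 2345 in control cells and 527 in the lymphomas. The higher members were of the Ly6 family and Irf8, with *Ly6c2* at 162 in control cells and 6408 in the lymphomas and *Ly6a* (Sca-1) at 475 in control cells and 1748 in the lymphomas. Id2/Id3-deficient CD4SP thymocytes, sorted like the controls from thymus, averaged 297 for *Ifi44*, 1009 for *Oas2* and 1081 for *Ifit1*. TFH cells, taken from spleen, averaged 47.7, 67 and 585. Over the whole list the means summed to 69000 in control cells and 60600 in the lymphomas. The sums were 84500 in Id2/Id3-deficient CD4SP cells and 69000 in TFH cells. The genes named here thus do not stand for the sum of the list in TFH cells, and the part of tissue was not tested. MHC class I genes were lower in 9 and higher in 0 of 25 cases. *Nlrc5*, the transactivator of class I genes, stood at 3345 normalized counts in control cells against 541 in the lymphomas, a log2 ratio of -2.63, and *H2-K1* had 30520.3 in control cells and 13162 in the lymphomas. *B2m*, the class I light chain, stayed within 2-fold at 24555 in control cells and 18858 in the lymphomas.

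**Figure D4:**
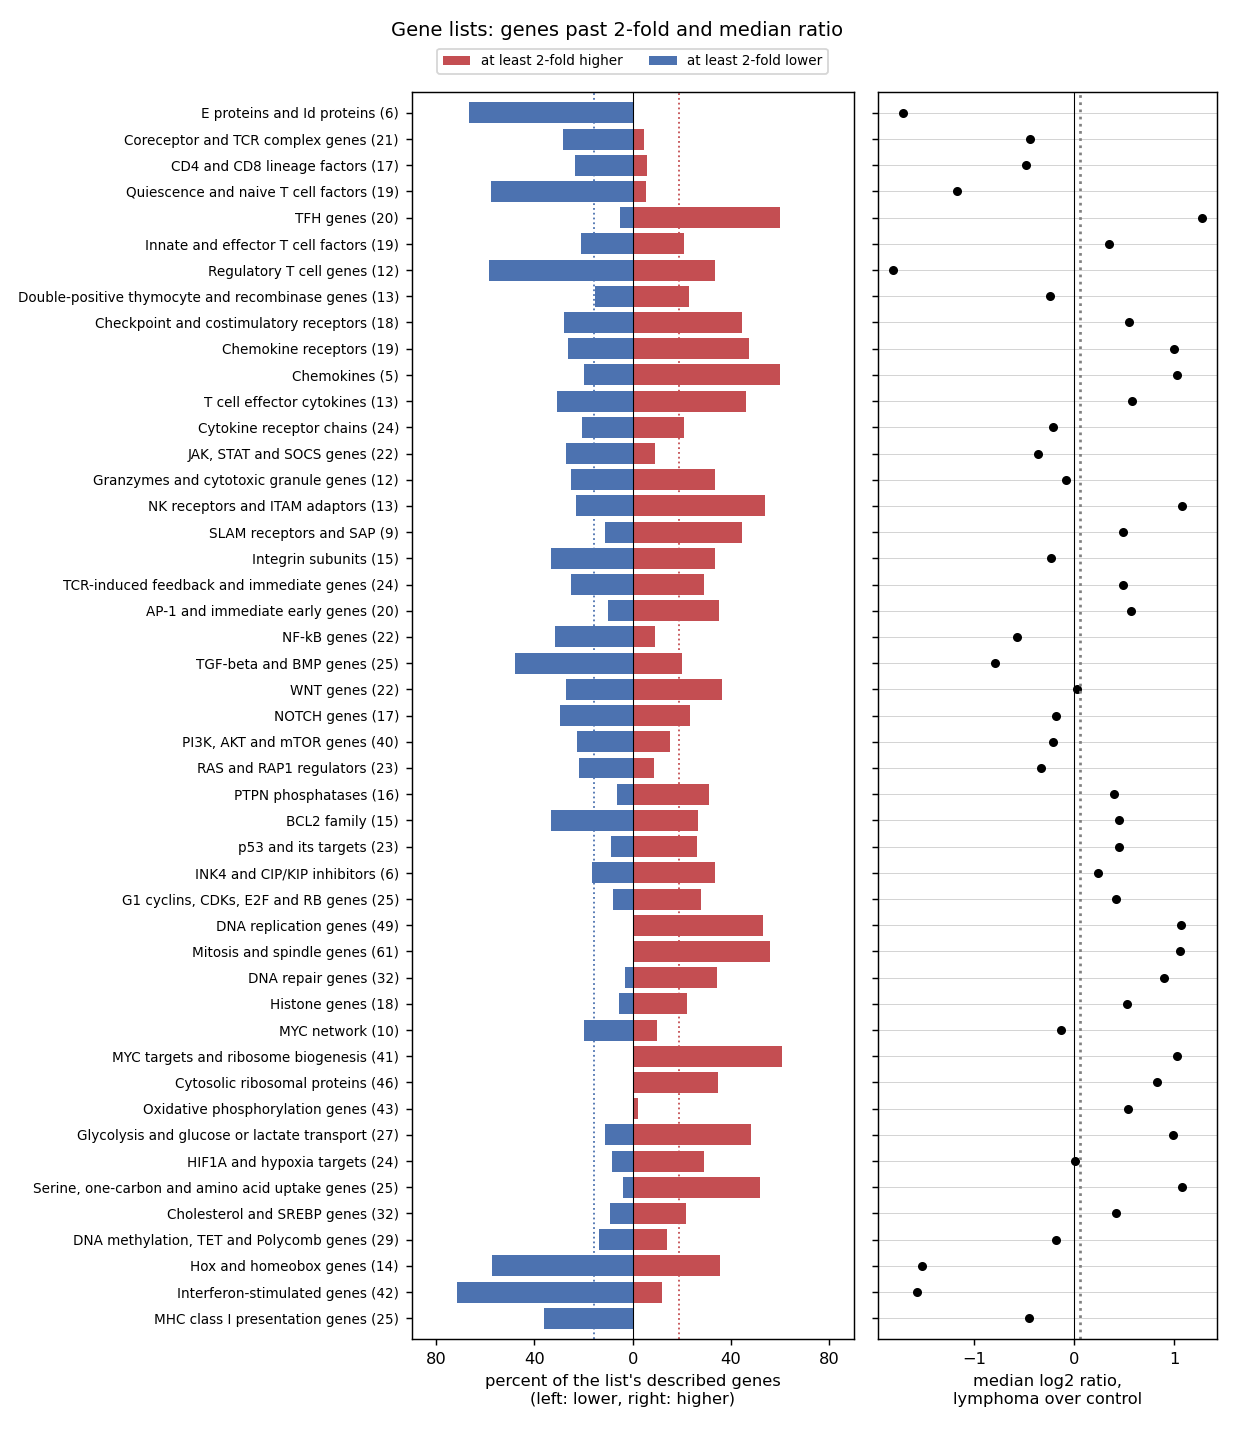
For 47 gene lists, the percent of described genes (number in parentheses) at least 2-fold higher (red, right) and lower (blue, left) in the lymphomas, and the median log2 ratio (black points); dotted lines mark 18.7%, 15.9% and the median of 0.06 over all genes. Interferon-stimulated and quiescence genes extend to the left, and TFH, replication, mitosis and MYC target genes to the right. The lists were chosen with earlier results of these data known.

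Gene segments of the T cell receptor were used narrowly in the lymphomas. Of 113 described TCR variable genes 100 were at least 2-fold lower and 9 higher. The summed mean of the Trbv segments was 5749.9 in control cells and 4405 in the lymphomas, so fewer segments carried a similar total. *Trbv1* held 51.4% of the lymphoma sum and 7.35% of the control sum, *Trbv20* 30.1% and 2.85%, and *Trbv13-3* 11% and 4.95%. The effective number of Trbv segments, the exponential of the Shannon entropy of the shares, was 15.5 in control cells, 10.1 in Id2/Id3-deficient CD4SP cells and 3.39 in the lymphomas. These shares are of means over 6 tumors and weight a tumor by its own level. With 1 value per group they do not say which segment belonged to which tumor.

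The alpha chain segments were also used unevenly in the lymphomas. The effective number of Trav segments was 76.6 in control cells and 9.21 in the lymphomas, where *Trav7-2* held 29.5% of the sum. *Trav9n-3* held 18.4% and *Trav9d-3* 17.8%, and the copies of these families share reads. Of the Traj segments, *Traj4* took 47.3% in the lymphomas and 2.46% in control cells, and *Traj30* 33.3% and 2.32%. *Traj18*, which the invariant NKT cell receptor uses, held 10.7% in the lymphomas, 3.32% in control cells and 12.3% in Id2/Id3-deficient CD4SP cells, with means of 19.6, 11.6 and 39.6 normalized counts. *Trav11*, the partner of *Traj18* in that receptor, held 4.65%, 0.653% and 2.04% in the same order. The Traj sums were small, 348 normalized counts in control cells and 184 in the lymphomas.

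**Figure D5:**
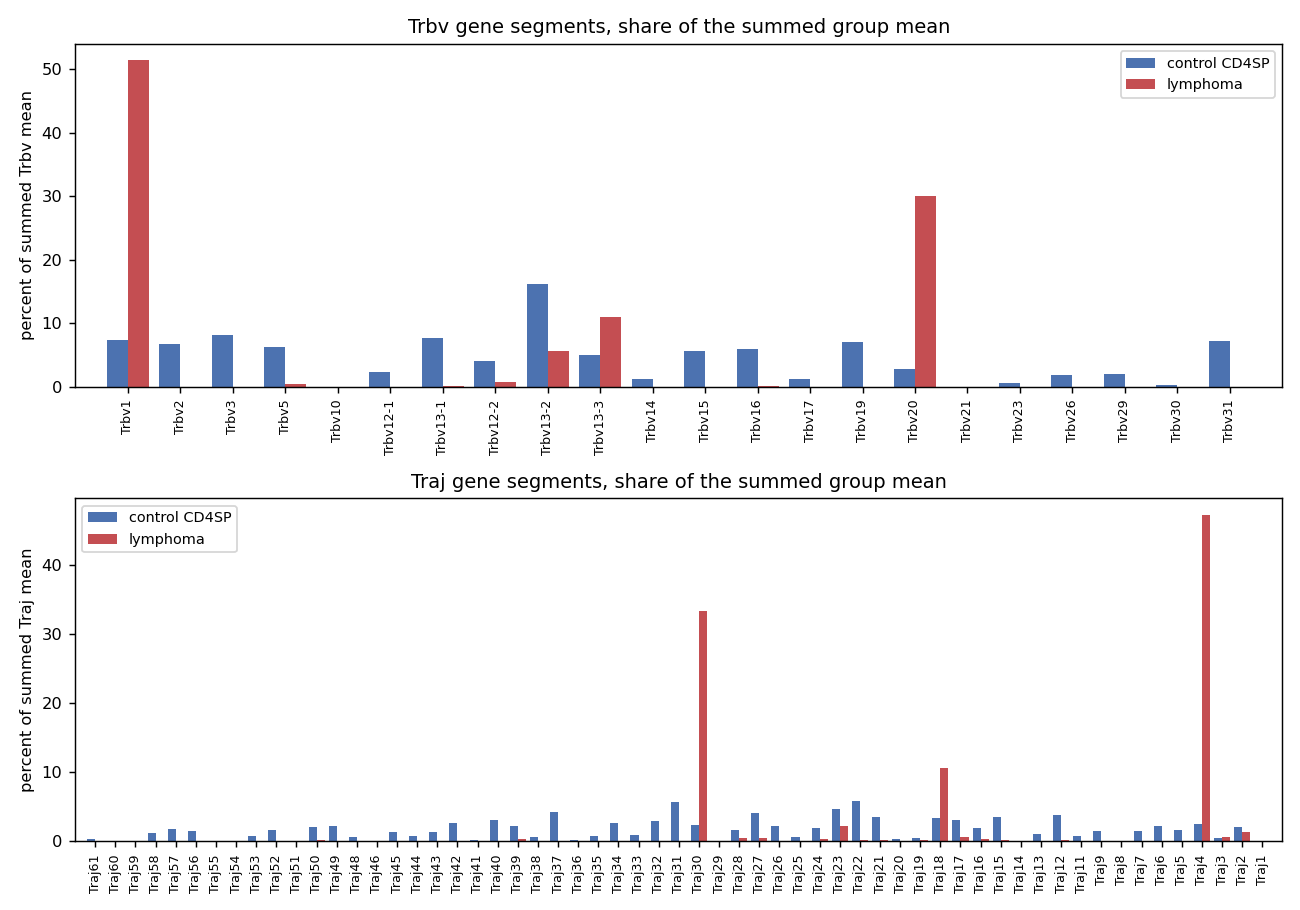
Share of the summed group mean, in percent, held by each Trbv segment (top) and each Traj segment (bottom) in control cells (blue) and lymphomas (red), in genome order. In the lymphomas Trbv1 and Trbv20 stand at 51.4% and 30.1%, and Traj4 and Traj30 at 47.3% and 33.3%.

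Set side by side, lymphoma means and means of Id2/Id3-deficient CD4SP thymocytes lay on the same side of control for several of these genes. Both groups were compared with the same control means, so a shared direction is not independent. *Foxo1* had 843 in Id2/Id3-deficient CD4SP cells and 913 in the lymphomas, *Tgfbr3* 32.1 and 36.7, *Myb* 6351 and 6336, and *Ccr10* 1911 and 2954. For others the means of these groups were far from each other, whether or not on the same side of control. *Il7r* had 311 and 3392, *Itga4* 621 and 11340.0, *Gpr83* 53.8 and 215, *Crtam* 11.2 and 680.3, and *Wnt6* 981 and 203. For *Wnt6* both lay above its control mean of 1.74, and for *Il7r* both lay under control. These pairs were chosen after their values were seen, and no test of the difference was possible.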

How the data were processed

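The authors prepared strand-specific RNA-seq libraries, placed the reads on mm10 with the OSA aligner of Array Studio, counted them with RSEM and normalized them with DESeq, as the study's methods and the submitters' processing notes state, without tool versions. The study states that genes under 10 in all samples were removed. The deposited table still holds such genes, *Traj1* for example being at 0 in every group. The deposited table gives a signal per gene and group, the authors' mean of normalized counts, in 5 columns, and 0 columns with values per sample. Its remaining columns hold the authors' fold changes, p-values and false discovery rates for each group against control cells and were not used. The fits planned for values per sample could not be run.

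Gene names came from the gene name table (37607 of 39179 identifiers) and positions from GENCODE vM21, on the same build. From the means, log2 ratios with a pseudocount of 1 were taken for the 14472 genes whose larger mean was at least 10, and genes past 2-fold were counted, overall and in 56 lists of 1218 distinct genes, of which 1071 were described. TCR shares, effective segment numbers, 20-base words shared with *Gm10800* and promoter motifs were computed with Python 3.11.15, numpy 2.4.6 and pandas 2.3.3, and figures with matplotlib 3.10.9. The ratio and count step was tested on simulated data.

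Genes named are Id2, Id3 and others the study names for the lymphomas, the 12 largest and 12 smallest ratios among genes with a larger mean of at least 100 outside antigen receptor segments, the 8 largest differences of means each way, and in each list up to 3 at either end plus well-known members. Genes outside this rule were chosen after their values were seen. Members and lists were chosen with earlier results of these data known. Alternatives were another pseudocount, fold, limit and scaling, and leaving out receptor segments and the sex chromosomes.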

Additional observations from a re-analysis of the deposited data

How the results depend on the processing

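The counts of 2708 higher and 2308 lower genes moved most with the fold and the limit on low means. At 4-fold 1314 genes were higher and 980 lower. With a limit of 50 in place of 10, 1318 genes were lower, and with no limit 6486 were. Other settings kept both counts within 1.5 times: pseudocounts of 0 and 10 gave 2754 and 2298 higher and 2373 and 1722 lower, scaling to a median ratio of 0 gave 2521 and 2483, and leaving out receptor segments and chromosomes X and Y gave 2587 and 2100. Scaling to equal sums left 6 in place of 12 lists with a median log2 ratio of at least 1; replication, mitosis, MYC target, serine, chemokine and NK receptor lists dropped under it. Of the list medians at least 1 in size, those of homeobox genes (1.09 with a limit of 50, when the Hoxa genes are left out), NK receptors (-0.25 with no limit) and stromal markers (-0.33 with no limit) changed sign. Smaller medians changed sign as well. With a limit of 50 the medians of integrins (0.78), granzymes (0.56), CD8 markers (0.39) and double-positive thymocyte genes (0.32) became positive, and with no limit those of WNT (-0.54), HIF1A (-0.12) and BCL2 (-0.04) genes became negative and that of CD8 markers positive (0.53). Equal sums turned the WNT (-0.18) and HIF1A (-0.19) medians, a median ratio of 0 turned them too (-0.05 and -0.06), and leaving out receptor segments and the sex chromosomes turned that of NK and gamma-delta T cell markers (-0.01). Summing the members of a V family gave an effective number of 4.01 Trav families in the lymphomas and 11.9 in control cells, in place of 9.21 and 76.6 segments, so the groups were less far apart by family. No paired analysis was possible because the columns carry no replicate numbers, and leaving out single libraries could not be run for the same reason. Without values per library, depth and spread are unknown. The authors' p-values were not used, so no ratio here was set against the variation between tumors.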
